A study of Macaca fascicularis with 12 samples.

Results

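Complement is an ancient arm of innate immunity, and the genes described here are 9 of its members: the C1q chains C1QA, C1QB and C1QC, the C1 proteases C1R and C1S, the convertase components C2, C3 and CFB, and SERPING1, the C1 inhibitor. They were chosen by name, and each gene was followed through every probe set that carried its symbol alone in the array annotation. This gave 10 probe sets for 6 of the 9 genes: 3 for CFB, 2 each for C1QA and C1S, and 1 each for C1QB, C1QC and SERPING1. C1R, C2 and C3 had no probe set of their own symbol and were not analysed here. In all, the annotation held 14132 distinct symbols.

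In the classical pathway, C1q binds antibody complexes, dying cells or synapses. Of its attached proteases, C1r then activates C1s, and C1s cleaves C4 and C2. Factor B is the protease precursor of the alternative pathway, in which it joins cleaved C3 to form a convertase. The C1 inhibitor is a serpin that traps C1r and C1s. In brain, C1q comes mainly from microglia, and C1s, factor B and the C1 inhibitor are known to be induced by interferons and inflammatory cytokines in many cell types. The genes of the C1q chains lie side by side among protein-coding genes, in the order C1QB, C1QC, C1QA, in the cynomolgus assembly T2T-MFA8v1.1, and CFB lies next to C2.

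Brain tissue came from 3 adult male cynomolgus macaques. The left hemisphere of each received BV-HSVtk, a baculovirus (an insect virus used as a gene vector), by 4 injections into the striatum, 10 µL and 1e8 particles each, and the right hemisphere received a mock preparation at the corresponding places. The mock was Sf9 insect cell medium without baculovirus taken through the same purification, so both groups were injected, no uninjected tissue was used here, and side and treatment cannot be told apart. Of the tissue collected 2 days later, 2 pieces per hemisphere were each put on 1 array, a rhesus macaque expression array, which gave 6 BV and 6 mock arrays. Odd replicate numbers are piece 1 and even numbers piece 2, and numbers 1 and 2, 3 and 4, and 5 and 6 are animals 1, 2 and 3.

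The arrays carried strong brain signal, with GFAP of astrocytes at a mean of 12.37 and MBP of myelin at 12.68 on the log2 scale. The pieces differed in striatal markers: signals of 7 markers of striatal medium spiny neurons summed to between 446 and 5210 on BV arrays and between 582 and 9860 on mock arrays. The piece number also went with the scale of the arrays, with medians of 50.2 to 62.8 in piece 1 and 25.4 to 32.7 in piece 2 before quantile normalization. The mean after trimming 2% at each end was 100.01 on every piece 2 array and 141.54 to 189.46 on piece 1 arrays. The deposited piece 2 arrays thus had 1 common scale and the piece 1 arrays did not, so piece and scaling cannot be told apart. The 3'/5' ratio of actin, a sign of RNA quality, was 2.4 on mock replicate 6 and lay between 1.1 and 1.4 on the other arrays. Levels below are log2 of quantile-normalized signal plus a pseudocount, means of the 2 pieces of a hemisphere unless single arrays are named. Differences are BV minus mock on that scale, ± the standard error from limma. The fit has 3 animals and 2 residual degrees of freedom, of 5.92 in total after limma borrows spread from other probe sets. Standard errors and intervals are therefore not the spread over the 3 animals alone.

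All 10 complement probe sets had a higher mean in BV tissue, against 46.9% of all probe sets, and none passed the limma fit at an adjusted p under 0.05. Their adjusted p ran from 0.323 to 0.783, and 0.0284% of all 31660 probe sets passed. Taking the brightest probe set for each gene, the median difference over the 6 genes was 0.90, or 0.87, 0.39 and 1.38 in animals 1, 2 and 3, while the median over all probe sets tested was -0.02. At an unadjusted p under 0.05 in the limma fit, 9 of the 10 were higher in BV tissue and none lower, against 5.15% of all probe sets higher and 8.8% in either direction. The difference was above 0 in all 3 animals for 9 of the 10, against 15.9% of all. One CFB probe set, MmugDNA.17588.1.S1_at, passed the intensity filter of 4.95 only through BV tissue, and without it both of these counts were 8 of 9. Because these are bulk pieces, more cells of a type and more RNA per cell cannot be told apart. With piece 2 arrays only, the number under an unadjusted p of 0.05 in limma was 5 of 10, without mock replicate 3 it was 6, and without animal 1 it was 7. Of all 31660 probe sets, 1747, 1786 and 1085 were under it in these settings, in either direction, against 2787 in the main fit. Without animal 2, 8 of the 10 passed after adjustment in limma, where 3.67% of all probe sets passed as higher. That fit has 1 residual degree of freedom, so its spread rests on values borrowed from other probe sets. Without mock replicate 4, 1 of the 10 passed, a C1S probe set, against 0.0884% of all.

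**Figure D1:**
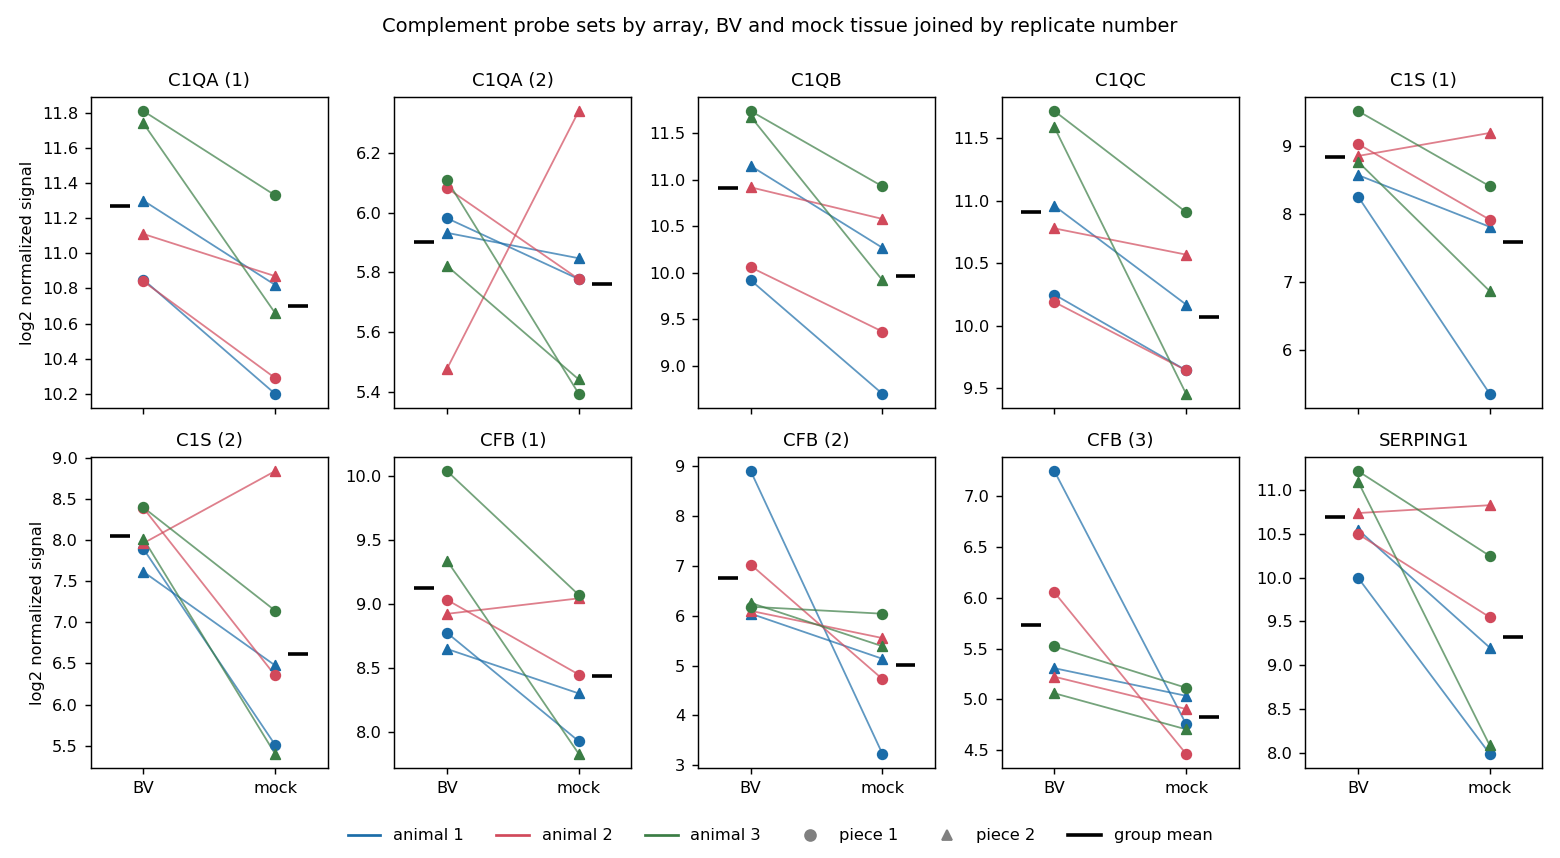
Log2 normalized signal (vertical axes, scaled per panel) of the 10 complement probe sets on 6 BV and 6 mock arrays, with lines joining arrays of the same replicate number, colour for the animal, shape for the piece and black bars for group means of 3 hemispheres. Numbers in brackets order the probe sets of 1 gene from bright to dim. In C1QB and C1QC all 6 lines slope down to mock, and in C1S and SERPING1 the line of pair 4 (animal 2, piece 2) does not.

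The C1q chains had higher signals in BV tissue in every replicate pair for the brightest probe set of each chain. C1QB, probe set MmuSTS.1397.1.S1_at, measured 10.54, 10.49 and 11.71 in BV hemispheres of animals 1, 2 and 3, against 9.49, 9.97 and 10.43 in mock hemispheres. The lowest BV hemisphere lay just above the highest mock hemisphere, and the single arrays overlapped, from 9.92 to 11.74 in BV and from 8.70 to 10.93 in mock. The difference was 0.95 ± 0.17, a 1.93-fold higher signal with a 95% interval of 1.45 to 2.57 (adjusted p = 0.323).

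C1QC, probe set MmugDNA.35854.1.S1_at, had 10.60, 10.49 and 11.65 in BV hemispheres and 9.91, 10.11 and 10.18 in mock hemispheres. Again the groups did not overlap, with animal 3 standing out in BV tissue. Its difference was 0.85 ± 0.21, or 1.80-fold (95% interval of the difference 0.32 to 1.38, adjusted p = 0.516), and it ranged from 0.21 in pair 4 to 2.13 in pair 6. Without animal 3 it was 0.54, and without mock replicate 6, the array with the high actin ratio, it was 0.61.

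C1QA had 2 probe sets that differed. The brighter one, MmuSTS.1957.1.S1_at, had 11.07, 10.98 and 11.77 in BV hemispheres and 10.51, 10.58 and 11 in mock hemispheres, with a difference of 0.58 ± 0.11, or 1.49-fold (95% interval 1.23 to 1.81, adjusted p = 0.397). Its groups overlapped narrowly, since the mock side of animal 3 lay just above the BV side of animal 2. The dim one, MmugDNA.2736.1.S1_at, had 5.96, 5.78 and 5.96 in BV hemispheres and 5.81, 6.06 and 5.42 in mock hemispheres. Its difference of 0.14 ± 0.20 has a 95% interval of -0.36 to 0.63 (adjusted p = 0.783), and its sign turned when only piece 2 was used, at -0.13.

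After subtraction of the mean of each piece set, the brightest probe sets correlated over the 12 arrays at r = 0.984 for C1QA with C1QB, 0.957 for C1QA with C1QC and 0.954 for C1QB with C1QC. The 2 probe sets of C1QA correlated at only 0.111, so the dim one did not follow its own gene's bright probe set. These correlations describe 12 arrays that share 3 animals, and they contain the difference between BV and mock tissue.

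SERPING1, the C1 inhibitor, had the largest difference among the brightest probe sets of the 6 genes. Its probe set MmuSTS.2736.1.S1_at measured 10.28, 10.62 and 11.16 in BV hemispheres, against 8.59, 10.19 and 9.17 in mock hemispheres. All BV hemispheres lay above all mock hemispheres, and the closest were the BV side of animal 1 and the mock side of animal 2. The difference was 1.37 ± 0.30, or 2.58-fold (95% interval 1.55 to 4.29, adjusted p = 0.44). It was 1.68, 0.43 and 1.99 in animals 1, 2 and 3, and 1.31 in the piece 1 arrays and 1.42 in the piece 2 arrays.

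C1S, the protease that SERPING1 inhibits, had a similar pattern in both of its probe sets. The brighter, MmuSTS.1398.1.S1_at, had 8.41, 8.94 and 9.13 in BV hemispheres and 6.59, 8.55 and 7.64 in mock hemispheres, and the groups overlapped through animal 2. Its difference was 1.24 ± 0.29, or 2.36-fold (95% interval 1.45 to 3.84, adjusted p = 0.468). The dimmer one had 7.75, 8.18 and 8.21 in BV hemispheres and 5.99, 7.60 and 6.27 in mock hemispheres, without overlap. Its difference was 1.43 ± 0.28, or 2.69-fold (95% interval 1.66 to 4.36, adjusted p = 0.406). This is the probe set that passed without mock replicate 4, at 1.84 (adjusted p = 0.0322).

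The C1S difference was larger in the piece 1 arrays, at 1.70 and 1.89 for its probe sets, than in the piece 2 arrays, at 0.77 and 0.96. Over the 12 arrays SERPING1 correlated with both C1S probe sets, at r = 0.94 and 0.934, and with the brightest C1QC, C1QB and C1QA probe sets at 0.852, 0.841 and 0.78.

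CFB, factor B, was measured by 3 probe sets that did not show the same animals as high. The brightest, MmuSTS.1399.1.S1_at, had 8.71, 8.98 and 9.69 in BV hemispheres and 8.11, 8.75 and 8.45 in mock hemispheres, with the largest difference in animal 3, at 1.24. Over the 3 animals it came to 0.69 ± 0.22, or 1.61-fold (95% interval 1.12 to 2.33, adjusted p = 0.564). Without animal 3 it was 0.41. The groups overlapped slightly, again through the mock side of animal 2.

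The dimmer CFB probe set MmugDNA.12153.1.S1_at had 7.47, 6.56 and 6.22 in BV hemispheres and 4.18, 5.14 and 5.71 in mock hemispheres. It is the only one of the 10 in which every BV array lay above every mock array, against 0.237% of all probe sets, and the gap was small, with the lowest BV array at 6.041 and the highest mock array at 6.04. Its difference of 1.74 ± 0.50, or 3.33-fold, has a wide 95% interval of 1.43 to 7.77 (adjusted p = 0.564), and it was largest in animal 1, at 3.29, and smallest in animal 3, at 0.51. Pair 1 stood far above the rest: the deposited signals there were 510 in BV and 7.44 in mock tissue. That mock array, at 3.23 on the log2 scale, lay far under the intensity filter, so the size of the pair's difference of 5.67 is not well measured. The other pairs ran from 0.14 to 2.30, and without animal 1 the difference was 0.96.

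The third CFB probe set, MmugDNA.17588.1.S1_at, had 6.28, 5.64 and 5.29 in BV hemispheres and 4.90, 4.68 and 4.91 in mock hemispheres, without overlap. All 3 mock hemispheres lay under the intensity filter of 4.95, so the size of the difference rests on a mock level too dim to be relied on. The fitted difference was 0.91 ± 0.23 (adjusted p = 0.52), with 1.5 in the piece 1 arrays and 0.32 in the piece 2 arrays, and it was 0.58 without BV replicate 1. The dimmer probe sets correlated with each other at r = 0.902, and with the brightest at 0.464 and 0.279. The brightest CFB probe set instead followed SERPING1, at 0.938. Which of the 3 reads factor B transcript best was not tested.

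**Figure D2:**
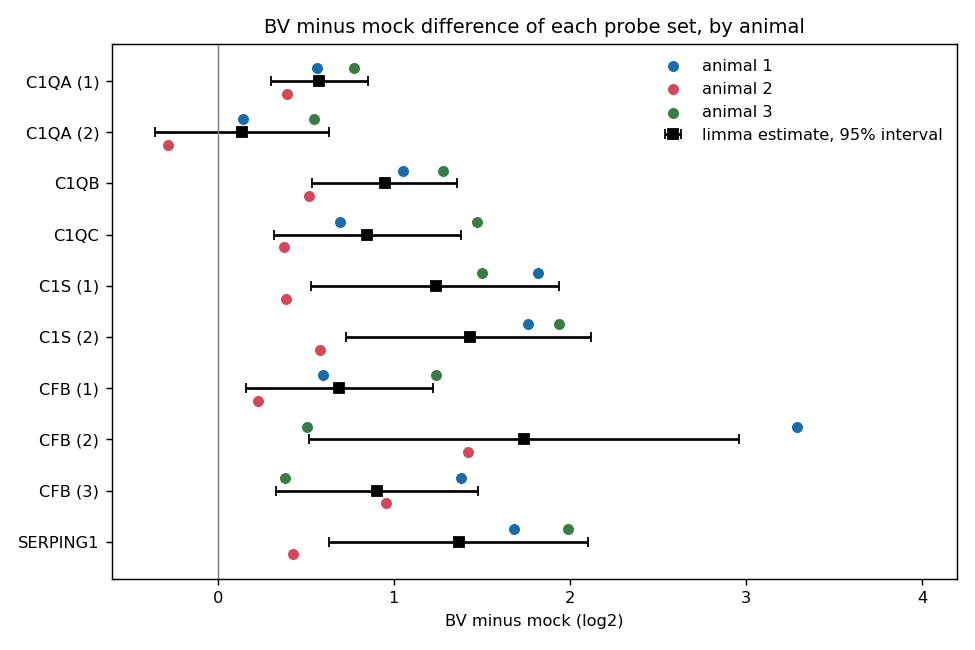
BV minus mock difference (log2, horizontal axis) of each complement probe set, with the limma estimate over 3 animals and its 95% interval in black and the 3 animals as coloured points. Animal 2 is the lowest in 8 of the 10, and in the dimmer CFB probe sets animal 3 is the lowest and animal 1 the highest.

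Against all probe sets, the complement differences lay in the upper part of the distribution. The percentile of the difference ran from 95.4 to 99.8 in 9 of the 10, and was 71.8 in the dim C1QA probe set. BV hemispheres all lay above mock hemispheres in 6 of the 10, against 4.71% of all probe sets. All 6 replicate pairs were higher in BV tissue in 5 of the 10, against 3.37% of all. Without the CFB probe set whose mock level was under the filter, these counts were 5 of 9 and 4 of 9. In a set of 3 animals an exact sign-flip test cannot go below p = 0.25, the value 9 of the 10 reached. The members were named with earlier results of these arrays known, so these counts describe them and do not test them.

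**Figure D3:**
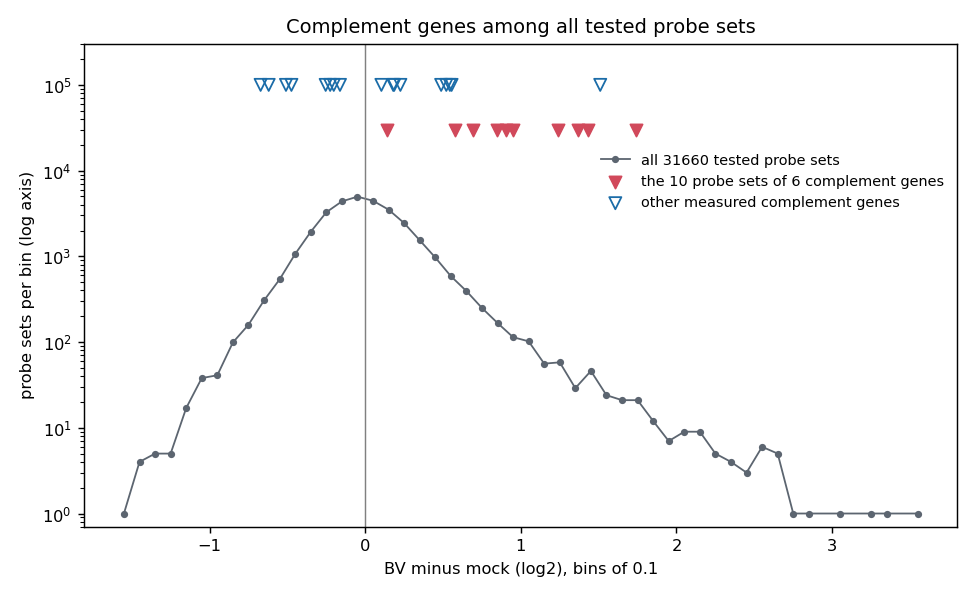
Number of probe sets per bin of BV minus mock difference (log2, horizontal axis; vertical log axis) for all probe sets tested, with triangles at the 10 complement probe sets and, in outline, at 17 other measured complement genes. Triangle height carries no value. The filled triangles lie right of 0, and the outlined ones lie on both sides.

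Animal 2 had the smallest difference in 8 of the 10 probe sets. For SERPING1 the BV hemisphere of animal 2 stood at 10.62 beside 10.28 and 11.16, and its mock hemisphere at 10.19 beside 8.59 and 9.17. Its mock hemisphere was likewise the highest of the 3 for both C1S probe sets, the brightest CFB probe set and the dim C1QA probe set. For the brightest C1q probe sets the mock hemisphere of animal 2 lay between the other two, and its BV hemisphere was the lowest of the 3. Of the single arrays, mock replicate 4 ranked first of the 12 arrays in 1 C1S probe set, 2nd in the other, first in the dim C1QA probe set and 3rd in SERPING1. Pair 4 gave differences of -0.34 and -0.88 for the C1S probe sets, -0.09 for SERPING1, -0.12 for the brightest CFB probe set and -0.86 for the dim C1QA probe set. The brightest C1QA, C1QB and C1QC probe sets had 0.24, 0.34 and 0.21 there. The interaction of animal and treatment, tested with an F test in limma, was called in 0 of the 10 probe sets and 0% of all, with 0 of the 10 at an unadjusted p under 0.05 against 5.12% of all. In that test the pieces of a hemisphere stand in as the spread, and for SERPING1 they differed by up to 2.17. The count of 0 therefore does not show that the animals responded alike.

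ISG15, a ubiquitin-like protein induced by interferon, passed the test and rose in BV tissue. It had 11.45, 11.34 and 12.16 in BV hemispheres and 8.09, 7.74 and 8.44 in mock hemispheres, a difference of 3.56 ± 0.13 (adjusted p = 0.00539). Mock replicate 4, high in C1S and SERPING1, ranked 9th of 12 in ISG15, at 7.94. The same array ranked first in S100A9, a neutrophil and monocyte gene picked after its values were seen, at 9.0, with 8.91 in BV replicate 4. Other myeloid genes differed: this array ranked 3rd in LCN2 and FCN1, 5th in LYZ and CD68, and 11th in ITGAM. It ranked 3rd in IRF1, also induced by interferon, and 3rd in CEBPD.

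**Figure D4:**
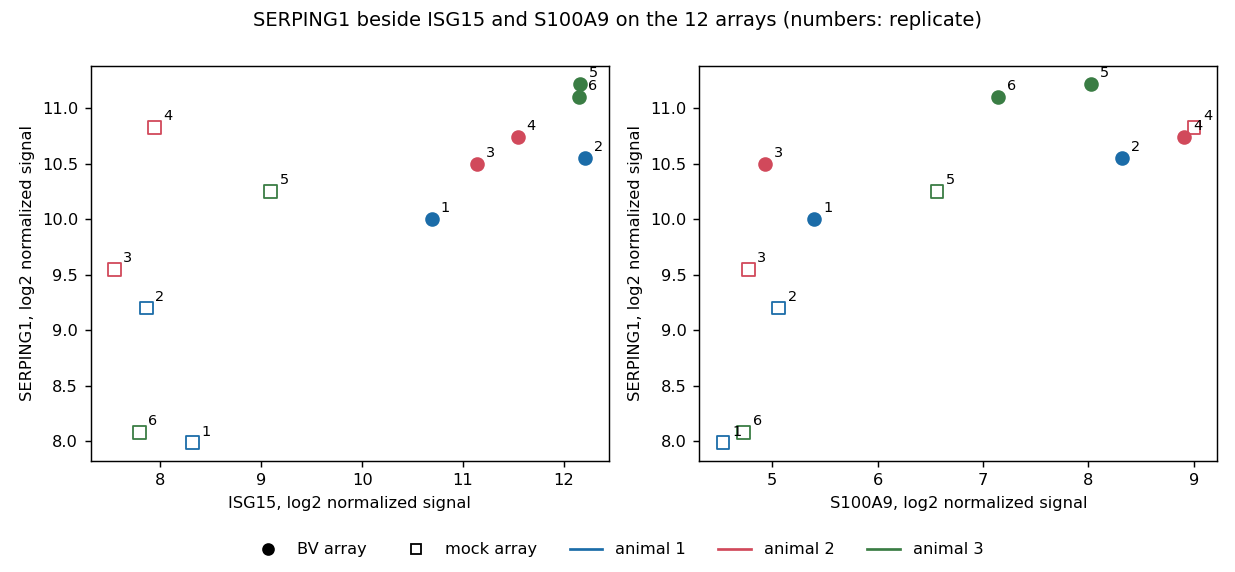
Log2 normalized signal of SERPING1 (vertical axes) against ISG15 (left) and S100A9 (right) on the 12 arrays, filled circles for BV, open squares for mock, colour for the animal and the replicate number beside each point. Mock replicate 4 stands at 10.83 for SERPING1 among the BV arrays, with ISG15 at 7.94 and S100A9 at 9.0.

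For SERPING1 and C1S the pieces of mock hemispheres lay further apart than those of BV hemispheres. For SERPING1 the 2 pieces of BV hemispheres differed by 0.54, 0.25 and 0.13 in animals 1, 2 and 3, against 1.22, 1.28 and 2.17 for mock hemispheres. For the brighter C1S probe set these gaps were 0.31, 0.18 and 0.74 in BV and 2.44, 1.27 and 1.54 in mock tissue. Such a larger gap on the mock side in 3 of 3 animals was seen in 6 of the 10 probe sets, against 18.7% of all, a count chosen after the values were seen. The low mock arrays were replicates 1 and 6, at 7.99 and 8.08 for SERPING1, and mock replicate 6 is the array with the high actin ratio. Without it the SERPING1 difference was 1.01 and the median over the 6 genes 0.69. C1QC then had 0.61 and the brightest CFB probe set 0.48. The part of RNA quality was not tested.

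Other genes of the cascade gave differences of both signs. Of 14 further initiators and enzymes, 8 were measured, 3 with higher and 5 with lower means in BV tissue, with a median of -0.19 and 0 passing in limma. FCN1, the ficolin of monocytes, had means of 5.76 in BV and 4.25 in mock tissue, with a fitted difference of 1.51 ± 0.41 (adjusted p = 0.535). Its mock level lay under the filter, so that size is uncertain, and without FCN1 2 of 7 were higher, with a median of -0.23. MASP2, the lectin pathway protease, had -0.67 ± 0.19 (adjusted p = 0.551), and CFD, the protease that cleaves factor B, -0.51 ± 0.16 (adjusted p = 0.564), both lower in 6 of 6 pairs. By their dimmer probe sets MASP2 had -0.12 and CFD -0.64. C4A and C4B were not analysed here. The 7 genes of the terminal pathway, C5 to C9, were all below the intensity filter.

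Of 21 regulators 4 were measured, with a median of 0.01 and 0 passing. CD55, which speeds the decay of convertases, had 0.56 ± 0.28 (adjusted p = 0.569), SUSD4 had -0.47 ± 0.18 (adjusted p = 0.564), and CFI, the protease that inactivates C3b and C4b, 0.23 ± 0.18 (adjusted p = 0.635). The dimmer SUSD4 probe set had -0.09. The membrane regulator CD46 was below the filter. Of 11 receptors and binding proteins 5 were measured, with a median of 0.49 and 0 passing. The anaphylatoxin receptor C5AR1 had 0.54 ± 0.30 (adjusted p = 0.573), the macrophage receptor VSIG4 0.52 ± 0.16 (adjusted p = 0.564), and ITGAM, a chain of complement receptor 3, -0.62 ± 0.16 (adjusted p = 0.507), lower in 6 of 6 pairs. ITGB2, the other chain of that receptor, was added after the values were seen. It went the other way, at 0.49 ± 0.21, with its tested probe sets between 0.49 and 0.76.

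Transcription factors that act on complement genes in other settings were looked at as well. Of 9 listed, 7 were measured, 5 of them higher, with a median of 0.53 and 0 passing. IRF1, a factor induced by interferon gamma, had 1.00 ± 0.40 (adjusted p = 0.564), of which animal 3 gave 2.24 and animal 2 gave 0.06. CEBPD, a factor of the acute phase response, had 0.92 ± 0.21 (adjusted p = 0.452) and was higher in 6 of 6 pairs. IRF7 had -0.89 ± 0.64 (adjusted p = 0.608) by its brighter probe set and 2.07 by the dimmer.

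Markers of cells that can make complement are given beside these values. The 11 measured microglia and macrophage markers had a median difference of 0.05, 7 of them higher, and their summed signals ran from 3060 to 6120 on BV and from 2630 to 6100 on mock arrays. The mean difference of the C1q chains exceeded the mean difference of that list in 6 of 6 pairs, by 0.45 to 1.06. These pairs are 2 pieces from each of 3 animals and are not independent, and no share over all probe sets was taken. What the gap means for microglia number was not tested. P2RY12, TMEM119 and CX3CR1, markers of resident microglia, had -0.10 ± 0.16, 0.18 ± 0.19 and -0.33 ± 0.17. The dimmer P2RY12 probe set had 0.22. CSF1R, a receptor of microglia, monocytes and macrophages alike, had 0.05 ± 0.14. CD68, of phagocyte lysosomes, had 1.41 ± 0.47 (adjusted p = 0.564) by the brighter of its probe sets and -0.17 by the dimmer. These 5 genes were picked after their values were seen.

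Of the recruited monocyte and neutrophil markers, 8 of 9 had higher means in BV tissue, with a median of 1.08, 0 passing, and sums of 1300 to 6550 on BV and 529 to 4930 on mock arrays. FCN1 is one of the 9, and without it 7 of 8 were higher, with a median of 0.95. The 6 measured astrocyte markers had a median of 0.08, with sums of 11300 to 14000 on BV and 12000 to 14700 on mock arrays, and the 5 endothelial and pericyte markers 0.19, with 924 to 1700 on BV and 915 to 1350 on mock arrays. Among the astrocyte markers SLC1A2, a glutamate transporter picked after its values were seen, had -0.998 ± 0.199 (adjusted p = 0.407) and was lower in 6 of 6 pairs. GFAP, SLC1A3, SOX9, ALDOC and ALDH1L1 did not follow it, at 0.05, -0.002, 0.11, 0.18 and 0.20. In liver and plasma protein genes, which can mark blood or the acute phase response, 4 of 10 were measured, with a median of 0.31 and sums of 818 to 2710 on BV and 595 to 2480 on mock arrays. Over the 12 arrays the mean of several lists followed SERPING1 and C1q: r was 0.879 and 0.726 for recruited cells, 0.843 and 0.869 for liver and plasma genes, 0.81 and 0.70 for microglia, and 0.738 and 0.697 for endothelium and pericytes. It was -0.276 and -0.403 for astrocytes, and 0.524 and 0.678 for the 2 measured markers of oligodendrocytes, so such values were not particular to these lists. Lists that do not mark cells also had such values. The transcription factors had 0.783 and 0.851, complement receptors 0.815 and 0.72, and complement regulators 0.724 and 0.451. No measured marker of the cell lists was at 0 on all 12 arrays, which passing the intensity filter already ensures. The part of these cells in the complement differences was not tested.

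**Figure D5:**
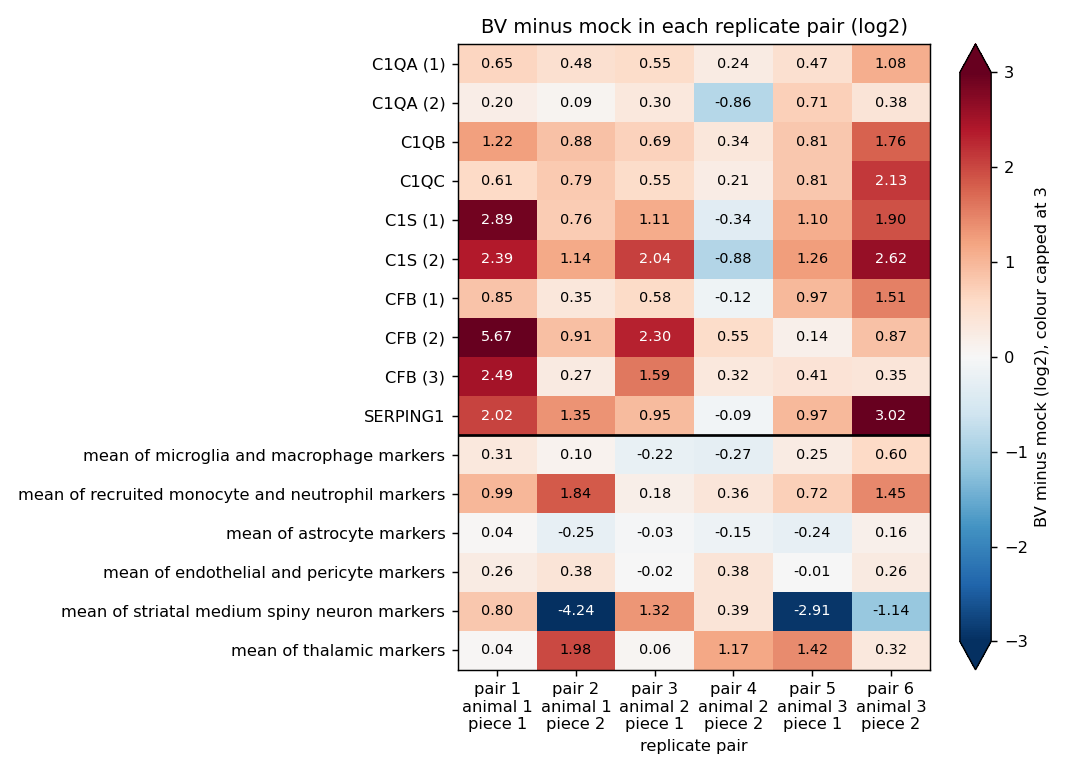
BV minus mock difference (log2, colour and printed value) in each of the 6 replicate pairs for the 10 complement probe sets (above the line) and the mean of 6 marker lists (below it). Pair 4 holds all 5 complement values below 0, and the striatal list runs from -4.24 in pair 2 to 1.32 in pair 3.

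The striatal neuron list had a median difference of -0.97 and the thalamic list one of 0.94. The thalamic mean of BV tissue exceeded that of mock tissue in 6 of 6 pairs, by 0.04 to 1.98, and 4 of its 6 markers were higher at an unadjusted p under 0.05 in limma, with 0 passing after adjustment. SHOX2, a thalamic transcription factor picked after its values were seen, had 1.73 ± 0.16 (adjusted p = 0.101). The striatal mean did so in 3 of 6 pairs, with differences from -4.24 to 1.32. Striatal markers correlated with C1q at r = 0.0631 and with SERPING1 at -0.0953, and thalamic markers at -0.298 and -0.0677. The part of regional makeup in the complement differences was not tested.

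The genes whose levels followed C1q most closely over the 12 arrays, among 11137 other genes, were CXCL10 (r = 0.964), PSME2 (0.963), LOC705588 (0.959) and IFI35 (0.957). CXCL10 is a chemokine that attracts T cells, PSME2 a subunit of the proteasome activator PA28, and IFI35 an interferon-induced protein. Their own differences were 1.88 ± 0.67, 1.23 ± 0.28, 1.20 ± 0.24 and 1.16 ± 0.21, with adjusted p from 0.353 to 0.564. For SERPING1 the closest were PLAAT4 (r = 0.98), PLSCR1 (0.978), MCM3 (0.972) and NCF1 (0.971). PLSCR1 is an interferon-induced membrane protein, MCM3 a replication factor and NCF1 a subunit of the phagocyte oxidase. Their differences were 2.23 ± 0.45, 1.65 ± 0.37, 0.83 ± 0.28 and 1.18 ± 0.36, with adjusted p from 0.41 to 0.564. For scale, the 99th percentile of r over all genes was 0.882 for C1q and 0.909 for SERPING1. The arrays share animals, and the difference between BV and mock tissue is part of each r.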

How the data were processed

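The authors deposited an intensity for each probe set and array on a linear scale, made with GCOS 1.4.0.036 per the submitters' processing notes, with summary algorithm and scaling not given in the sources used here. Per the labels' protocols, RNA was extracted with Trizol and 5 µg labelled. The 12 arrays were quantile normalized, and values taken as log2(signal + 3.49), the 10th percentile of intensities, which understates differences of dim probe sets. Of 52766 probe sets without the 99 controls, the 31660 whose mean reached 4.95, the 40th percentile, entered the fit; all 10 complement probe sets passed it. Symbols came from the annotation of a rhesus macaque array, on which cynomolgus RNA may bind less well; probe sequences were not used here.

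The pieces of a hemisphere were averaged and fitted in limma 3.58.1 (R 4.3.3) with animal as a block, eBayes with trend, and two-sided p-values adjusted by Benjamini-Hochberg (threshold 0.05). The block follows the protocol, as each animal carries both treatments; deviations of both hemispheres correlated at 0.622, 0.156 and 0.361 over probe sets in animals 1, 2 and 3. The interaction test used single arrays with a term for piece. With 3 animals, their number limits the precision. The fit was also run on simulated data with independent noise on every array. That simulation lacks the shared variation of the 2 pieces of a hemisphere, so it cannot show how the fit performs on such pieces. Named were all members; of each complement and transcription factor list passing genes or else the 3 of largest difference; ISG15 and IRF1; defining cell markers; and the 4 genes of highest correlation with C1q and with SERPING1. C3 was to be a further anchor but has no probe set of its symbol. Members and lists were chosen with earlier results of these data known. Alternatives covered pseudocount, filter, normalization, block, piece and left-out arrays and animals.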

Additional observations from a re-analysis of the deposited data

Results flagged for a closer look

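On 1 of 20 groups of 6 arrays tested over the 10 complement probe sets, a single array stood apart from the rest. It was BV replicate 1 (animal 1, piece 1) for the CFB probe set MmugDNA.12153.1.S1_at, at 8.90, with the other BV arrays between 6.04 and 7.03. The gap to the nearest array was 0.656 of the whole range. Chance alone flags about 1 in 20 groups.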

How the results depend on the processing

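The 10 probe sets were refitted in 29 alternative settings, 289 combinations in all, since CFB MmugDNA.17588.1.S1_at was below the filter at the median and not tested there: 277 kept the sign and stayed uncalled, 9 were called and 3 turned sign. The sign turned only in the dim C1QA probe set, to -0.00336 without normalization, -0.13 with piece 2 arrays only and -0.0672 without animal 3; with animals or arrays left out it ranged from -0.0672 to 0.346. The median over 6 genes stayed between 0.66 (without animal 3) and 1.12 (without animal 2). The number of the 10 called was 0 in all settings but those that left out an animal or array, which ranged from 0 to 8: 8 without animal 2 and 1 without mock replicate 4; the interaction test gave 0 in both of its alternatives.

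The number of all probe sets called was 9. It was 5 without the filter, 1 without normalization, 4 on hemisphere means without the animal block and 30 with animal as block on single arrays. It was 14 in the piece 1 arrays and 0 in the piece 2 arrays (1747 at an unadjusted p under 0.05 in limma). It was 85 with duplicateCorrelation, 38 with a piece term and 1 without the variance trend. With single arrays left out it ranged from 0 to 43 and with animals left out from 1 to 1845. With the replicate number as a block on single arrays it was 55, and 0 of the 10 complement probe sets were called in that paired fit, with adjusted p of 0.0806 for C1QB; this fit takes pieces of an animal as independent. Why counts moved was not tested. Dim probe sets, such as those of C1QA and CFB near the filter, limit what can be read from small differences.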
